A study of Mus musculus with 24 samples.

Results

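The 33 genes described here act on DNA that carries bulky adducts or crosslinks: genes of nucleotide excision repair, of the Fanconi pathway and its partner nucleases and recombination proteins, and of translesion synthesis. They were chosen by name from the 33272 genes of a count table, by no rule on their values but with earlier results of these data known. Every one of them was found. The table holds 24 RNA libraries from liver and kidney of C57BL/6 mice, 3 per tissue and arm. The arms were the combination (CBLB502 at 0.2 mg/kg, followed 30 min later by cisplatin at 20 mg/kg injected into the peritoneum), cisplatin at 20 mg/kg alone, CBLB502 at 0.2 mg/kg alone and untreated control. Tissue of the dosed arms was taken at 72 h. For the controls no time is given. CBLB502 is an agonist of the flagellin receptor TLR5, and the study asked whether it protects liver and kidney from cisplatin. The labels give neither age nor sex. Nor do they say whether each library is its own mouse, so a p-value here sets a difference against library-to-library spread, part of which may be technical.

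Cisplatin binds purines and joins neighbouring bases of a strand, and less often bases of opposite strands. In nucleotide excision repair, damage is found either genome-wide by Xpc and the Ddb1-Ddb2 complex or at stalled RNA polymerase by Ercc6 and Ercc8, the helix is opened by TFIIH with Xpa and RPA, and the damaged stretch is cut out by Ercc1-Ercc4 and Ercc5. Crosslinks between strands engage the Fanconi core complex, which marks Fancd2 and Fanci with ubiquitin, followed by cutting around Slx4, by translesion polymerases such as Rev1 and the Rev3l polymerase that copy past the lesion, and by recombination with Brca1 and Brca2. Proximal tubule cells of the kidney take up cisplatin, and in human cells XPC, DDB2 and POLH are known targets of p53.

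Promoter sequences are shown for 4 genes whose levels the results turn on: Rpa2, Fance and Ercc1, which were higher in kidney after cisplatin, and Brca1, which was higher in liver. They are RefSeq sequences of the build GRCm38.p6, 5′ to 3′ on the strand of the gene, from 250 bases before to 50 bases after the annotated start. Capitals mark a CCAAT box, the letters CCAAT, or a GC box, the letters GGGCGG, on either strand.
Rpa2, chr4:132768110-132768409, plus strand: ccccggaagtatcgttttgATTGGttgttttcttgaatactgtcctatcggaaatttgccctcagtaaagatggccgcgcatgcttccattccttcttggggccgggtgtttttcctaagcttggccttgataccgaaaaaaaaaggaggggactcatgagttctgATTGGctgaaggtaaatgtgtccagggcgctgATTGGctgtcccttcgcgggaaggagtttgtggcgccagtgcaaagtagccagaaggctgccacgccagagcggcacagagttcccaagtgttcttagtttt
Fance, chr17:28313280-28313579, plus strand: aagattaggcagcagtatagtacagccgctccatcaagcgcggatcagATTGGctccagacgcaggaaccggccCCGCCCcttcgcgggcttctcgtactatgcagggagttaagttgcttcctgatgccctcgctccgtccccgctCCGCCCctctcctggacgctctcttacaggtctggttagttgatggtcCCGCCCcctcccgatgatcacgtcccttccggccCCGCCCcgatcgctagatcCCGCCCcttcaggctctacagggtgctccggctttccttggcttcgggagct
Ercc1, chr7:19344821-19345120, plus strand: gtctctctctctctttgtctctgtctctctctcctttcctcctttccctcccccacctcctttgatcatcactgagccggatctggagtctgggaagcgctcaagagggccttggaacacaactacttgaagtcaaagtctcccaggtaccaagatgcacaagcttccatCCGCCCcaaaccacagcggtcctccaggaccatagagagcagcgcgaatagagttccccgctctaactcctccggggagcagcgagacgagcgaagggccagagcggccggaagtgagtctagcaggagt
Brca1, chr11:101551906-101552205, minus strand: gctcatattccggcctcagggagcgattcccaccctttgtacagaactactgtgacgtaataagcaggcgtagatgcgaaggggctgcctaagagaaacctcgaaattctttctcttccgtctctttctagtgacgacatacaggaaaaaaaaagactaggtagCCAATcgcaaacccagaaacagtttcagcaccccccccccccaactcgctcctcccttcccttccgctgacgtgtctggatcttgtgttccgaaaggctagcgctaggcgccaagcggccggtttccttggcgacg

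Of the 33 genes, 28 had such a promoter, and with alternative starts there were 31 windows. CCAAT was found in 51.6% of these windows, against 37.4% of all 32851 mouse promoter windows, and GGGCGG in 58.1%, against 35.7%. Of the other motifs searched on both strands, the E2F letters TTTNNCGC were in 12.9% of the repair gene windows, against 5.17% of all, and the cell cycle element TTTGAA in 3.23%, against 17.9%. The AP-1 letters TGANTCA were in none of them, against 7.81% of all, the antioxidant element TGACNNNGC in 12.9%, against 12.4%, the STAT letters TTCNNNGAA in 12.9%, against 8.3%, and a p53 half-site in 9.68%, against 8.36%. An AP-1 match can lie inside an antioxidant element match, and TTTGAA inside a STAT match. These are matches of letters, with no measurement of binding.

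Total depth was 40.578 to 77.536 M counts per library in liver and 52.851 to 77.1 M in kidney, with M for mega. In the controls most counts fell on mitochondrial genes or their nuclear copies, so that the remaining genes shared 48.603 to 74.501 M counts in dosed liver, against 2.819 to 4.649 M in control. In kidney the remaining genes shared 44.002 to 68.831 M counts in the dosed arms, against 5.054 to 10.137 M in control. Every comparison with control therefore also compares these kinds of library. The comparisons with CBLB502 alone, which had no cisplatin and a depth nearer to the other dosed arms, are given first below. In liver CBLB502 libraries held 48.603 to 52.45 M counts of the remaining genes, against 67.143 to 74.501 M in the arms given cisplatin. In kidney they held 44.002 to 47.9 M, against 63.132 to 68.831 M. Their mitochondrial share was higher too, at 6.726% to 7.105% in liver, against 2.567% to 5.703%. In kidney it was 13.27% to 14.219%, against 6.315% to 10.301%. In each tissue 1 cisplatin library stood apart: liver library 3 differed from libraries 1 and 2 by a chi-square per degree of freedom of 2131.89 and 1613.15, and those differed from each other by 208.93. Kidney library 6 differed from libraries 4 and 5 by 778.21 and 864.77, and those from each other by 171.71. The cell cycle inhibitor gene Cdkn1a, a target of p53, was at 423 and 319 CPM (counts per M on scaled library sizes) in liver cisplatin libraries 1 and 2 and at 103 in library 3, and at 626, 600.2 and 74.3 CPM in kidney libraries 4, 5 and 6. The calls of the cisplatin comparisons within a tissue are given with these libraries and, beside or after that, without them.

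Macrophage markers, 8 in the list, differed between the same libraries. Their summed level was 519, 215 and 96 CPM in liver cisplatin libraries 1, 2 and 3, and 17.2 to 25.5 CPM in the combination, 144.7 to 281.2 with CBLB502 and 105 to 172.2 in control. In kidney it was 437, 277 and 40.1 CPM in cisplatin libraries 4, 5 and 6, and 25.5 to 34.3 in the combination, 30.7 to 60.6 with CBLB502 and 32.8 to 50 in control, with Vsig4, Cd5l and Marco at 0 in cisplatin kidney. The 12 lymphocyte markers summed to 0.55 to 1.26 CPM in combination liver and 1.07 to 3.21 CPM in cisplatin liver, against 15.8 to 25.5 with CBLB502 and 102 to 149 in control. In kidney the lymphocyte sum was 3.21 to 4.37 CPM for the combination and 1.01 to 8.14 for cisplatin, against 16.1 to 21.5 with CBLB502 and 20.3 to 70.8 in control. The 8 neutrophil markers summed to 29.6, 40.6 and 2.52 CPM in liver cisplatin libraries 1, 2 and 3, and 0.21 to 0.68 in the combination, 2.29 to 3.19 with CBLB502 and 9.06 to 14.7 in control. In kidney their sum was 7.05, 29.2 and 1.37 CPM in cisplatin libraries 4, 5 and 6, and 0.24 to 2.35 in the combination, 1.5 to 1.89 with CBLB502 and 2.87 to 5.67 in control. The 7 erythroid markers were low in both arms given cisplatin: 5.06 to 9.72 CPM in combination kidney and 2.69 to 5.47 with cisplatin, against 166 to 719 with CBLB502 and 190.1 to 1003 in control, and 14 to 21.7 CPM in combination liver and 6.35 to 11.3 with cisplatin, against 174.5 to 190.4 with CBLB502 and 141 to 605 in control. So were the 8 endothelial and stromal markers, at 36.5 to 53.5 CPM in combination kidney and 15.9 to 80.5 with cisplatin, against 128.5 to 202.3 with CBLB502 and 408.5 to 596.7 in control, and at 14 to 21.1 CPM in combination liver and 11.2 to 17.2 with cisplatin, against 45.6 to 89.2 with CBLB502 and 52.9 to 226 in control. Hepatocyte markers marked the liver, at 58500 to 77260 CPM in the combination, 58370 to 85600 with cisplatin, 46590 to 57960 with CBLB502 and 14000 to 27330 in control. The 8 kidney tubule markers summed to 4017 to 4674 CPM in combination kidney and 2190, 2028 and 6225 CPM in cisplatin libraries 4, 5 and 6, against 7829 to 8356 with CBLB502 and 2062 to 3856 in control. Their part in the results on repair genes was not tested, and in these bulk samples fewer cells of a type and less RNA per cell cannot be told apart.

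Levels between genes are compared per kb of the length that the deposited FPKM imply. On that scale Ddb1 stood far above all other repair genes in the dosed arms, at 35.3 ± 1.75 CPM per kb in combination kidney, 37.5 ± 10.2 in cisplatin kidney and 20.1 ± 0.24 in CBLB502 kidney (SD, n = 3). The gene next in CBLB502 kidney was Ercc3, at 4.68 ± 0.15 CPM per kb, and then Rpa1, at 3.85 ± 0.11. After cisplatin the next genes in kidney were Fance, at 6.67 ± 3.22 CPM per kb, and Rpa2, at 5.09 ± 3.11, which did not differ beyond their spread. In liver Ddb1 was at 15 ± 1.08 CPM per kb in the combination, 22.5 ± 3.04 with cisplatin and 11.7 ± 0.63 with CBLB502. In control liver Xpa, at 4.28 ± 1.81 CPM per kb, and Ddb1, at 3.58 ± 0.51, lay within their spread. At the low end of CBLB502 kidney were Brca1, at 0.024 ± 0.0055 CPM per kb, Fancd2, at 0.032 ± 0.011, and Fanci, at 0.045 ± 0.048.

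In kidney, cisplatin against CBLB502 alone called 6 of the 33 repair genes higher (Rpa2, Fance, Ercc1, Ercc8, Ddb1 and Ercc5) and 1 lower (Ercc6) by the quasi-likelihood test of edgeR, adjusted over all genes by Benjamini and Hochberg's method, which is behind every adjusted p below. This is a smaller share than the background of 28.7% (18.5% higher and 10.2% lower) of the 20341 genes tested. The median log2 fold change of the 33 genes was 0.01, and that of all genes was -0.05. The combination against CBLB502 called 3 higher (Ercc1, Ddb1 and Fance) and 1 lower (Ercc6), with a background of 23.8% (14.9% higher and 8.98% lower), and medians of 0.16 and -0.02. Both comparisons share the CBLB502 libraries. The combination against cisplatin called none of the 33 by edgeR, with 5 at an unadjusted p under 0.05 and 1 called by DESeq2, and a background of 0.00492%, which is 1 gene.

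**Figure D1:**
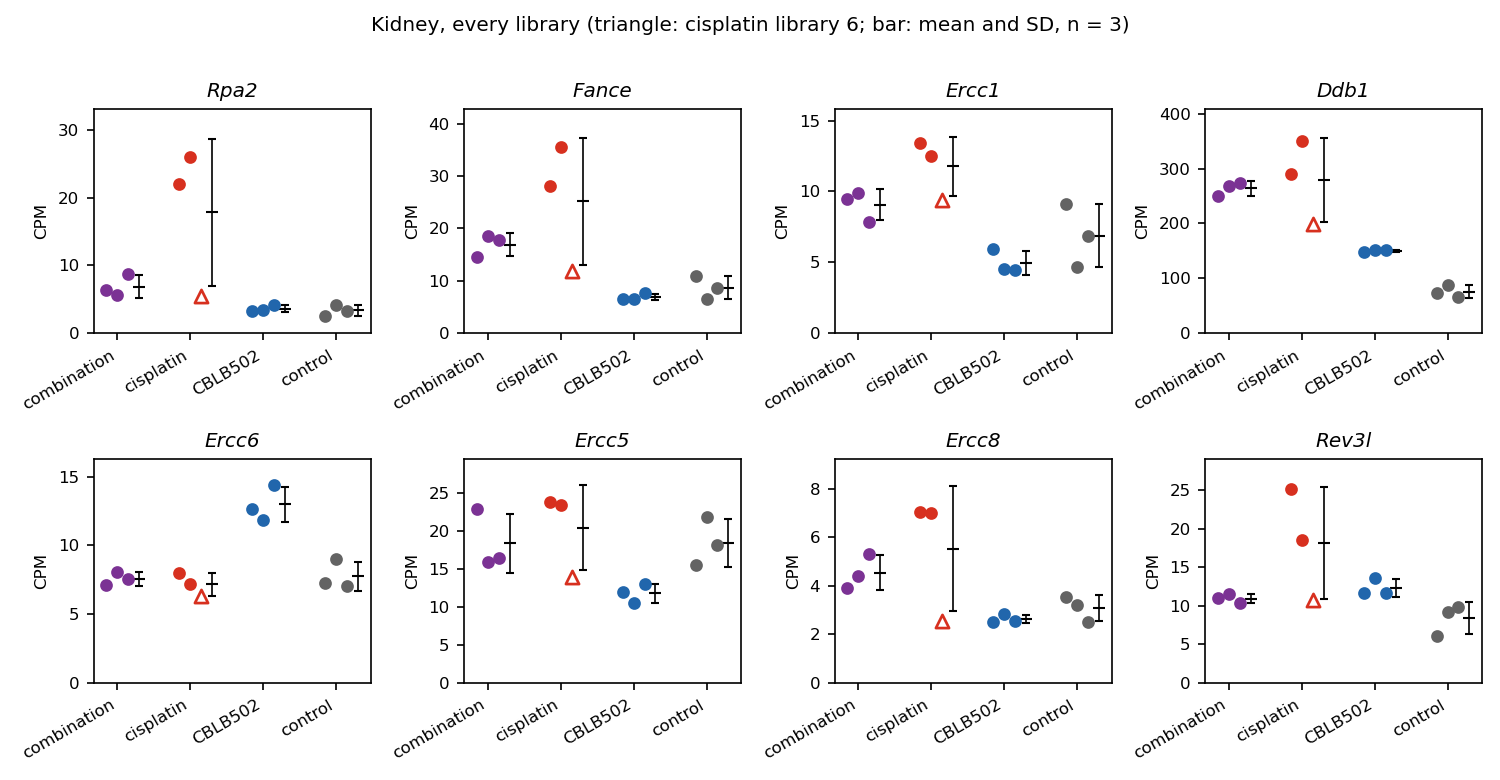
CPM of 8 repair genes in every kidney library, in the combination, cisplatin, CBLB502 and control arms; points are libraries, the open triangle is cisplatin library 6, and bars are the mean and SD of 3 libraries. For Rpa2 and Fance, cisplatin libraries 4 and 5 lie above all others, while library 6 lies at 5.44 and 11.9 CPM, below the other cisplatin libraries; for Ercc6 all cisplatin and combination libraries lie below those of CBLB502.

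Rpa2 encodes the middle subunit of RPA, which coats single-stranded DNA during excision repair (chr4:132768332-132778752). Its kidney libraries held 6.28, 5.56 and 8.71 CPM in the combination, 22, 26.1 and 5.44 CPM after cisplatin, 3.23, 3.34 and 4.14 CPM with CBLB502 and 2.54, 4.14 and 3.27 CPM in control. The cisplatin libraries did not overlap those of CBLB502, and library 6 was the lowest of the cisplatin libraries. Cisplatin against CBLB502 gave a log2 fold change of 2.32 ± 0.46 (adjusted p = 0.00389) and 2.75 ± 0.25 without library 6. The combination against CBLB502 gave 0.94 ± 0.45 (adjusted p = 0.152). The genes of the other RPA subunits were not called against CBLB502. Rpa1, which binds DNA, was at 32.2, 32.3 and 34.6 CPM in the combination, 14.4, 15.2 and 31.1 CPM after cisplatin and 25.4, 25.6 and 24.2 CPM with CBLB502, so that cisplatin libraries 4 and 5 lay below every other dosed library. Rpa3 was at 3.11 to 7.29 CPM over the 9 dosed kidney libraries and was called in no comparison.

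Fance encodes a subunit of the Fanconi core complex that binds Fancd2 (chr17:28313519-28326572), and its promoter window above held 5 GC boxes. It was at 14.5, 18.5 and 17.8 CPM in combination kidney and 28.1, 35.6 and 11.9 CPM with cisplatin, against 6.52, 6.45 and 7.55 CPM with CBLB502 and 10.9, 6.4 and 8.68 CPM in control. All 6 libraries given cisplatin lay above all 6 others. The log2 fold change was 1.88 ± 0.34 for cisplatin against CBLB502 (adjusted p = 0.00218), or 2.22 ± 0.21 without library 6, and 1.31 ± 0.33 for the combination against CBLB502 (adjusted p = 0.0146). The second call was lost without combination library 5 or CBLB502 library 4 or 5, where the adjusted p reached 0.0619. In liver the same gene stayed between 3.43 and 6.34 CPM over all 12 libraries and was called in no comparison.

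Ercc1 is the partner of the Ercc4 nuclease and makes the 5′ incision with it (chr7:19344778-19356524). Its kidney libraries were at 9.47, 9.87 and 7.85 CPM in the combination, 13.4, 12.5 and 9.42 CPM after cisplatin, against 5.93, 4.52 and 4.43 CPM with CBLB502. Both groups given cisplatin lay above CBLB502 without overlap, while control, at 9.13, 4.63 and 6.86 CPM, overlapped the combination. Cisplatin against CBLB502 gave 1.25 ± 0.26 (adjusted p = 0.00487) on the log2 scale, or 1.38 ± 0.25 without library 6, and the combination 0.87 ± 0.26 (adjusted p = 0.0299). The call for the combination was lost, with an adjusted p up to 0.112, without any 1 of the 3 combination libraries or of CBLB502 libraries 5 and 6. The gene overlaps Cd3eap on the other strand, whose log2 fold change for cisplatin against CBLB502 in kidney was 0.91 ± 0.25 (adjusted p = 0.0185). The strand setting of the count is not given in the sources used here, so reads of such pairs cannot be told apart. In liver Ercc1 was low, at 1.42 to 1.96 CPM in the combination, 1.64 to 2.19 with cisplatin, 1.49 to 1.82 with CBLB502 and 0.2 to 2.86 in control, and was not called.

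Ddb1, the adaptor of the Cul4 ubiquitin ligase that recognises damage together with Ddb2 (chr19:10605327-10629819), was at 249, 269 and 274 CPM in combination kidney and 291, 350.2 and 198 CPM with cisplatin. CBLB502 kidney held 148, 151 and 151 CPM and control kidney 72.2, 87.8 and 64.9 CPM. The groups fell into steps, with control below CBLB502 and CBLB502 below both groups given cisplatin. Cisplatin against CBLB502 gave a log2 fold change of 0.9 ± 0.2 (adjusted p = 0.00636) and the combination 0.82 ± 0.2 (adjusted p = 0.0113). Both calls held without any 1 library of their groups.

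Ercc6, which recruits repair factors to stalled RNA polymerase, went the other way. It was at 7.08, 8.09 and 7.54 CPM in combination kidney and 7.97, 7.19 and 6.32 CPM with cisplatin, against 12.7, 11.9 and 14.4 CPM with CBLB502. Control kidney, at 7.27, 8.98 and 7.01 CPM, overlapped both groups given cisplatin, so that CBLB502 alone stood out. The log2 fold change was -0.86 ± 0.18 for cisplatin (adjusted p = 0.00486), -0.78 ± 0.18 for the combination (adjusted p = 0.00873) and, of CBLB502 against control, 0.74 ± 0.18 (adjusted p = 0.0149). The first 2 of these held without any 1 library, and the third was lost without CBLB502 library 6 or control library 3, with an adjusted p up to 0.0591. Its partner Ercc8, the substrate receptor of a ubiquitin ligase at the same step, was at 3.9, 4.39 and 5.32 CPM in combination kidney and 7.02, 6.99 and 2.55 CPM with cisplatin, against 2.5, 2.81 and 2.54 CPM with CBLB502. The call for cisplatin, 1.08 ± 0.36 (adjusted p = 0.0418), rested on libraries 4 and 5: library 6 lay within the CBLB502 range. It was lost, with an adjusted p up to 0.161, without any 1 library of these groups except cisplatin library 6, without which it was 1.42 ± 0.24 (adjusted p = 0.000459).

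Ercc5, the nuclease of the 3′ incision, was at 22.9, 15.9 and 16.4 CPM in combination kidney and 23.9, 23.4 and 14 CPM with cisplatin, against 11.9, 10.5 and 13 CPM with CBLB502 and 15.5, 21.8 and 18.1 CPM in control. The groups given cisplatin lay above CBLB502 and within the range of control or near it. The change against CBLB502 was 0.79 ± 0.23 for cisplatin (adjusted p = 0.0259) and was lost, with an adjusted p up to 0.101, without CBLB502 library 4 or 5 or cisplatin library 4 or 5. Rev3l, the catalytic subunit of the polymerase that extends past crosslinks, was at 10.9, 11.5 and 10.4 CPM in combination kidney and 25.2, 18.6 and 10.7 CPM with cisplatin, against 11.7, 13.6 and 11.6 CPM with CBLB502 and 6.01, 9.23 and 9.87 CPM in control. Only cisplatin libraries 4 and 5 stood out. Its log2 fold change for cisplatin was 0.56 ± 0.28 against CBLB502 (adjusted p = 0.147) and 1.11 ± 0.28 against control (adjusted p = 0.00892).

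Without cisplatin library 6, cisplatin against CBLB502 in kidney called 9 repair genes higher and 5 lower, with a background of 46.9%. The genes gained were Xpa, Lig1 and Rev3l, higher, and Rpa1, Fancg, Fancm and Slx4, lower. Without that library the combination against cisplatin, which called none with it, called 2 higher (Rpa1, 1.16 ± 0.19, and the nuclease gene Mus81, 1.034 ± 0.24) and 4 lower (Rpa2, -1.81 ± 0.24, the ligase gene Lig1, -1.26 ± 0.36, Rev3l, -1 ± 0.2, and Fance, -0.91 ± 0.21), with a background of 22.3%. Mus81, singled out after its values were seen, was at 10 to 12.5 CPM in the combination. In the 2 remaining cisplatin libraries it was at 5.03 and 5.77 CPM, and in library 6 at 10.2 CPM. Mus81 overlaps Efemp2 on the other strand, and reads of this pair cannot be told apart. Efemp2 was at 2.71, 3.85 and 4.02 CPM in combination kidney and 2.31, 2.37 and 4.7 CPM in cisplatin libraries 4, 5 and 6.

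In liver, cisplatin against CBLB502 called 5 of 32 tested repair genes higher (Fancc, Brca1, Polk, Ercc5 and Ddb1) and none lower, with a background of 12.5% (7.7% higher and 4.84% lower) of 17931 genes, a median of -0.04 for the repair genes and one of -0.06 for all genes. Fancd2 did not pass the filter on low counts in liver. The combination against CBLB502 called 3 higher (Brca1, Polk and Rev1) and none lower, with a background of 6.74% (2.88% higher and 3.86% lower) and medians of 0.31 and 0.02. The combination against cisplatin called Fancc lower and no other repair gene, with a background of 3.57% (0.993% higher and 2.58% lower) and medians of 0.26 and 0.01.

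**Figure D2:**
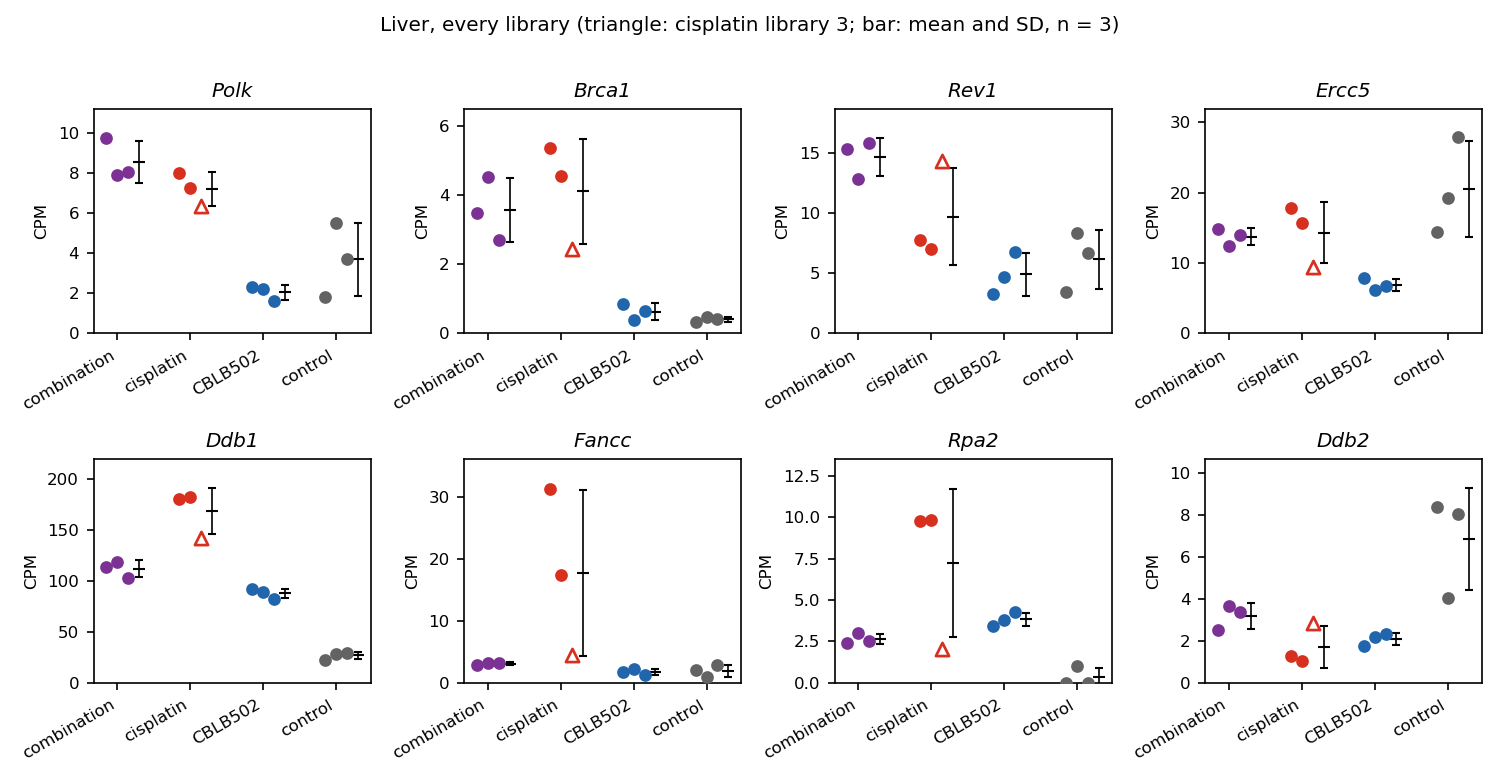
CPM of 8 repair genes in every liver library, in the combination, cisplatin, CBLB502 and control arms; points are libraries, the open triangle is cisplatin library 3, and bars are the mean and SD of 3 libraries. For Polk and Brca1 all 6 libraries given cisplatin lie above those of CBLB502 and control; for Fancc, cisplatin libraries 1 and 2 lie at 31.3 and 17.5 CPM, and no other library lies above 4.5 CPM.

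Polk encodes a polymerase that copies past bulky lesions (chr13:96480690-96542485). It was at 9.77, 7.89 and 8.05 CPM in combination liver and 8.03, 7.27 and 6.34 CPM with cisplatin, against 2.32, 2.2 and 1.6 CPM with CBLB502 and 1.82, 5.5 and 3.72 CPM in control. All libraries given cisplatin, library 3 included, lay above all others. The log2 fold change against CBLB502 was 2.07 ± 0.33 in the combination (adjusted p = 0.00419) and 1.82 ± 0.33 with cisplatin (adjusted p = 0.00616), and both calls held without any 1 library. In kidney the gene was at 12.5, 8.27 and 8.91 CPM in the combination, 9.61, 7.8 and 9.04 CPM after cisplatin, against 7.55, 6.95 and 5.67 CPM with CBLB502. Kidney changes against CBLB502 were 0.56 ± 0.23 in the combination (adjusted p = 0.106) and 0.39 ± 0.23 with cisplatin (adjusted p = 0.232).

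Brca1, which acts in recombination repair (chr11:101488764-101551955), was at 3.48, 4.52 and 2.69 CPM in combination liver and 5.36, 4.55 and 2.42 CPM with cisplatin. It was at 0.84, 0.37 and 0.64 CPM with CBLB502 and 0.3, 0.46 and 0.4 CPM in control, where it rested on 3, 6 and 4 counts. Group means were 5.79-fold higher in the combination and 6.67-fold higher with cisplatin than with CBLB502. The log2 fold change was 2.53 ± 0.43 in the combination (adjusted p = 0.00603) and 2.74 ± 0.44 with cisplatin (adjusted p = 0.00308), and both calls held without any 1 library. In kidney Brca1 was at most 0.53 CPM in the dosed arms and 0.9 CPM in control, and was not called. Mki67, a marker of dividing cells, was at 0.068, 0.2 and 0.099 CPM in combination liver and 0.21, 0.076 and 0.17 CPM with cisplatin, against 0.84, 0.63 and 1.56 CPM with CBLB502. Of 18 tested proliferation markers, none was higher and Mki67 was lower in each of these 2 comparisons.

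Rev1, the scaffold that other translesion polymerases bind (chr1:38052786-38129662), was at 15.3, 12.8 and 15.8 CPM in combination liver and 7.77, 6.97 and 14.3 CPM with cisplatin, against 3.21, 4.62 and 6.75 CPM with CBLB502 and 3.43, 8.28 and 6.64 CPM in control. Cisplatin library 3 lay among the combination libraries and libraries 1 and 2 lay between these and CBLB502. The change against CBLB502 was 1.59 ± 0.37 in the combination (adjusted p = 0.0281) and 0.99 ± 0.37 with cisplatin (adjusted p = 0.102). The call was lost, with an adjusted p up to 0.132, without any 1 library of the pair except CBLB502 library 3. Eif5b, which overlaps Rev1 on the other strand, changed by 0.12 ± 0.15 in the same comparison (adjusted p = 0.781).

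Fancc, a Fanconi core subunit (chr13:63285043-63497278), was at 2.83, 3.25 and 3.18 CPM in combination liver and 31.3, 17.5 and 4.5 CPM with cisplatin, against 1.69, 2.25 and 1.28 CPM with CBLB502 and 2.02, 0.93 and 2.82 CPM in control. Cisplatin libraries 1 and 2 stood far above all others. The log2 fold change was -2.52 ± 0.57 for the combination against cisplatin (adjusted p = 0.0377) and 3.35 ± 0.6 for cisplatin against CBLB502 (adjusted p = 0.00546). Without library 3 the first was -2.97 ± 0.37 (adjusted p = 0.000274), and without any 1 of the other 5 libraries of that pair its call was lost, with an adjusted p up to 0.165. The Fancc span holds part of the aminopeptidase gene Aopep on the other strand, which was at 35, 31.7 and 30.6 CPM in combination liver and 57.4, 37.8 and 23.9 CPM with cisplatin, against 15.9, 17 and 13.1 CPM with CBLB502. In kidney Aopep was at 92.5, 114 and 43.3 CPM with cisplatin, while Fancc was at 4.78, 2.19 and 8.14 CPM in the same libraries.

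Ercc5 in liver was at 14.8, 12.4 and 14 CPM in the combination, 17.9, 15.7 and 9.39 CPM after cisplatin, against 7.77, 6.06 and 6.69 CPM with CBLB502, and at 14.4, 19.2 and 27.9 CPM in control. CBLB502 was the low group, as in kidney. Cisplatin against CBLB502 gave 1.064 ± 0.28 (adjusted p = 0.0279), and the call was lost, with an adjusted p up to 0.12, without any 1 library of the pair except cisplatin library 3. Ddb1 in liver was at 114, 119 and 103 CPM in the combination, 180, 182 and 142 CPM after cisplatin, against 91.5, 88.9 and 82.4 CPM with CBLB502 and 22.4, 28.2 and 29.6 CPM in control. Every dosed group lay above control, and cisplatin above the combination. Cisplatin against CBLB502 gave 0.94 ± 0.19 (adjusted p = 0.00876, and 0.0559 without CBLB502 library 3). Tkfc, which overlaps Ddb1 on the other strand, averaged 369 ± 112 CPM in combination liver and 386 ± 156 with cisplatin (SD, n = 3). With CBLB502 it was at 193 ± 20.7 CPM and in control at 117 ± 49.1, so reads of Tkfc may add to the liver values of Ddb1. Ercc6 in liver was at 8.4, 10.1 and 10.9 CPM in the combination, 4.74, 5.19 and 5.97 CPM after cisplatin, against 5.01, 6.31 and 9.54 CPM with CBLB502 and 7.37, 16.3 and 13.2 CPM in control, and was not called among the dosed arms.

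Without liver cisplatin library 3, cisplatin against CBLB502 called 6 repair genes higher, the 5 above and Xpa (0.93 ± 0.29, adjusted p = 0.0297), and 1 lower (Xpc), with a background of 29.6%. Without it the combination against cisplatin called 7 repair genes, with a background of 23.1%. Xpc (0.69 ± 0.22), Ddb2 (1.49 ± 0.37), the TFIIH helicase gene Ercc3 (0.99 ± 0.21) and Rev3l (0.74 ± 0.24) were higher. Ddb1 (-0.68 ± 0.16), Rpa2 (-1.87 ± 0.61) and Fancc were lower. Rpa2 in liver was at 2.41, 3 and 2.54 CPM in the combination, 9.76, 9.82 and 2.05 CPM after cisplatin, against 3.45, 3.79 and 4.25 CPM with CBLB502, so that cisplatin libraries 1 and 2 stood above the rest, as libraries 4 and 5 did in kidney. Rev3l in liver was at 5.3, 7.38 and 7.35 CPM in the combination, 4.14, 3.92 and 4.48 CPM after cisplatin, against 4.91, 6.07 and 6.2 CPM with CBLB502 and 5.65, 7.43 and 5.23 CPM in control. There the cisplatin libraries were the low ones, whereas in kidney 2 of them were the high ones.

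**Figure D3:**
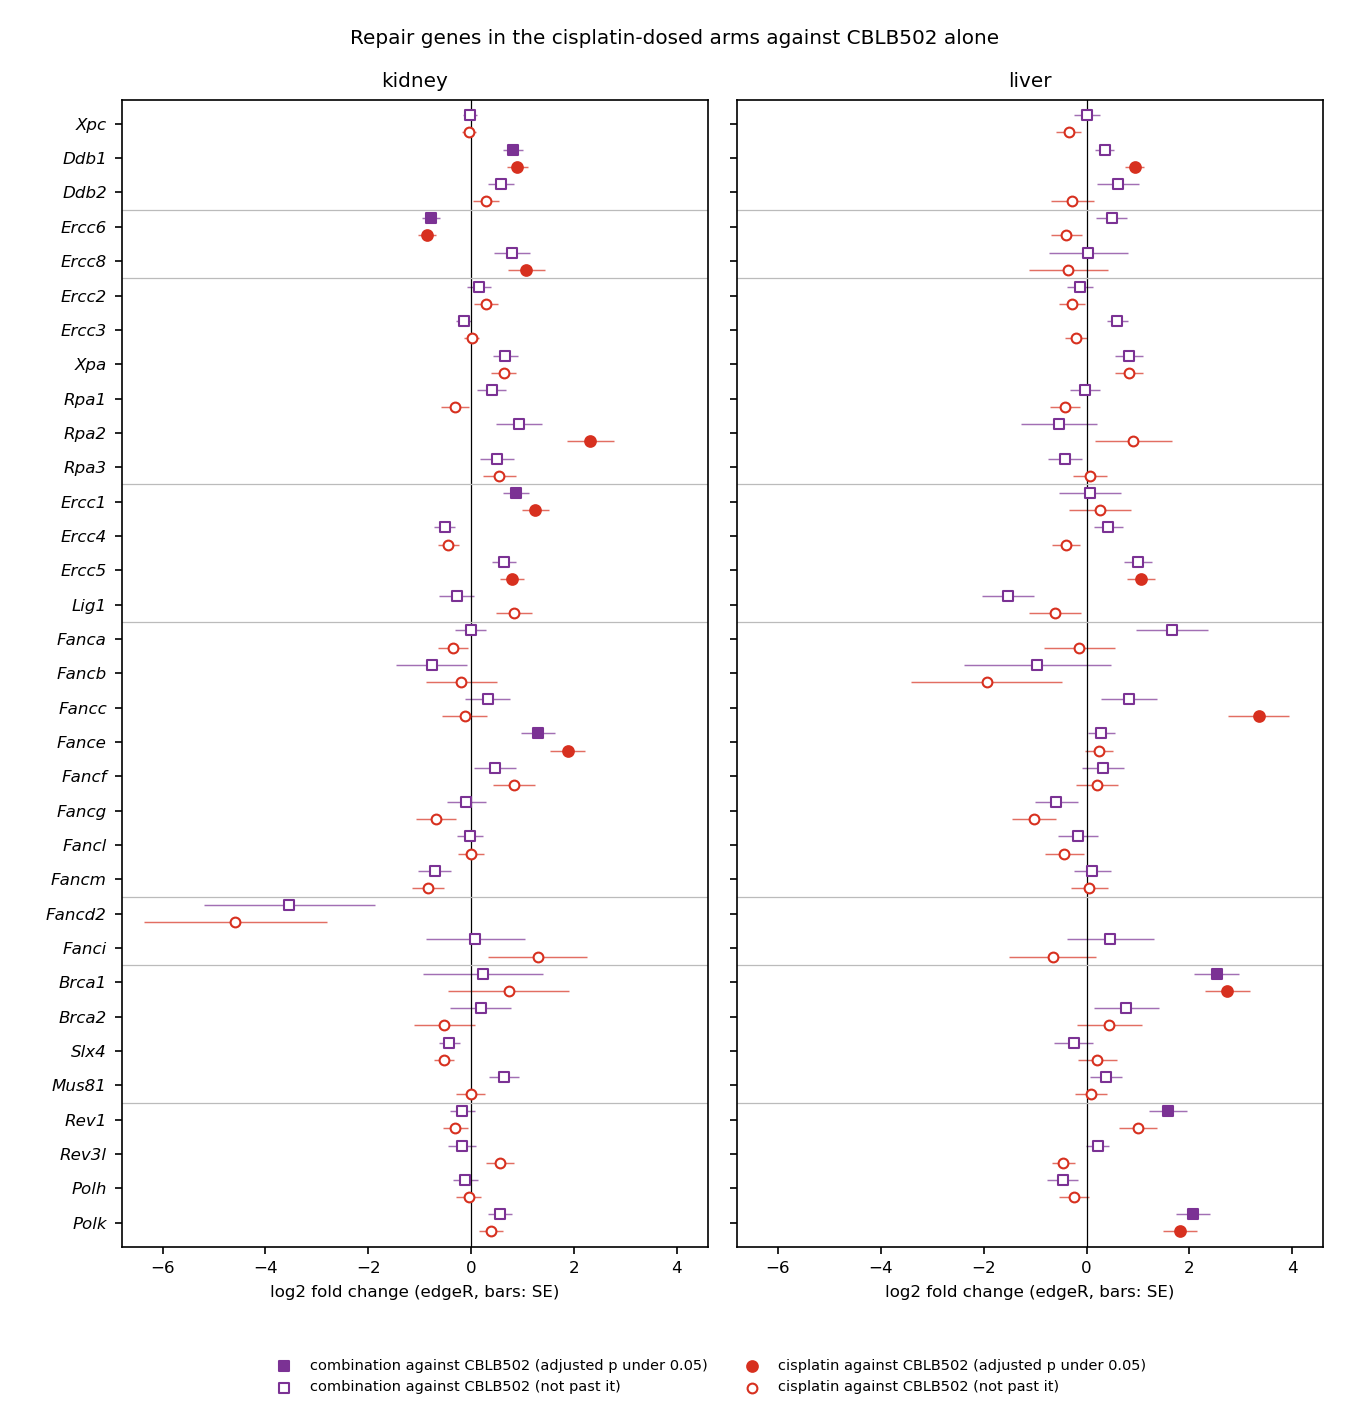
Log2 fold changes of the repair genes for the combination (squares) and cisplatin (circles) against CBLB502 alone, in kidney and liver, with bars of 1 SE from the edgeR fit; filled symbols have an adjusted p under 0.05 and lines separate the roles. In kidney the filled symbols lie among the excision repair genes and Fance, in liver among Brca1, Rev1, Polk, Fancc, Ddb1 and Ercc5; Fancd2 was not tested in liver.

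Xpc, Ddb2 and Polh, whose human counterparts are known p53 targets, were called in none of these comparisons between dosed arms with all libraries in. Without liver library 3, Xpc and Ddb2 were called as given above. Against control, Xpc was called higher in liver in the combination (log2 fold change 1.05) and with CBLB502 (1.04). Both calls held without any 1 library (edgeR adjusted p up to 0.032 and 0.0493). Each was lost under 1 of 7 other settings. Calls of Ddb2 against control are given below. Xpc, which senses distorted DNA, was at 20.9, 25.8 and 23.1 CPM in combination kidney and 24.4, 21 and 24.1 CPM with cisplatin, against 23.7, 25 and 22.4 CPM with CBLB502 and 18.8, 17.1 and 20.3 CPM in control. These dosed groups overlapped, and cisplatin against CBLB502 gave -0.03 ± 0.14 (adjusted p = 0.876). In liver Xpc was at 8.24, 6.54 and 7.45 CPM in the combination, 4.18, 5.12 and 8.04 CPM after cisplatin, against 8.33, 7.5 and 6.28 CPM with CBLB502 and 3.43, 3.41 and 3.93 CPM in control. Without library 3 the change for cisplatin against CBLB502 was -0.67 ± 0.22 (adjusted p = 0.0379), against -0.35 ± 0.25 (adjusted p = 0.401) with it.

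Ddb2, the partner of Ddb1 that binds the lesion, was at 5.72, 6.44 and 7.64 CPM in combination kidney and 6.89, 3.77 and 5.4 CPM with cisplatin, against 4.71, 4.47 and 4 CPM with CBLB502 and 4.23, 3.32 and 3.48 CPM in control. The combination lay above CBLB502 without overlap, with 0.59 ± 0.26 (adjusted p = 0.119). In liver it was at 2.5, 3.66 and 3.35 CPM in the combination, 1.27, 1.02 and 2.85 CPM after cisplatin, against 1.75, 2.17 and 2.3 CPM with CBLB502 and 8.38, 4.03 and 8.05 CPM in control. Acp2 overlaps Ddb2 on the other strand, and reads of this pair cannot be told apart. In liver Acp2 was at 32.1, 29.4 and 32.4 CPM in the combination and 10.3, 9.59 and 25.9 CPM after cisplatin. It was at 26.9, 24.5 and 23.8 CPM with CBLB502 and 11.6, 21.1 and 20.1 CPM in control. Polh, the polymerase that copies past intrastrand adducts, was at 3.24, 3.2 and 3.98 CPM in combination kidney and 3.92, 3.87 and 3.12 CPM with cisplatin, against 3.89, 3.77 and 3.6 CPM with CBLB502 and 3.98, 2.83 and 3.01 CPM in control. In liver Polh was at 1.72, 1.72 and 1.86 CPM in the combination, 2.28, 1.64 and 2.26 CPM after cisplatin, against 2.52, 2.67 and 2.13 CPM with CBLB502 and 1.92, 1.78 and 2.21 CPM in control. Its change for cisplatin against CBLB502 was -0.05 ± 0.24 in kidney (adjusted p = 0.911) and -0.24 ± 0.29 in liver (adjusted p = 0.637).

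Other targets of p53 were called in the same libraries. Of 10 reference targets of p53, 8 were higher in the combination and 9 with cisplatin than with CBLB502 in kidney, where 14.9% and 18.5% of all genes were higher. In liver 9 and 10 were higher, beside 2.88% and 7.7% of all genes. Cdkn1a was at 222, 181 and 184 CPM in combination kidney and at the cisplatin values given above, against 4.68, 3.25 and 3.76 CPM with CBLB502 and 16.2, 9.23 and 13.8 CPM in control. Its log2 fold change against CBLB502 was 5.65 ± 0.67 in the combination (adjusted p = 0.000268) and 6.8 ± 0.7 with cisplatin (adjusted p = 0.000379). Pcna, the sliding clamp of repair synthesis, was at 40.6, 39.5 and 44 CPM in combination kidney and 62.4, 59.8 and 31.4 CPM with cisplatin, against 23.2, 21.9 and 23.5 CPM with CBLB502. The change was 0.85 ± 0.23 in the combination (adjusted p = 0.0183) and 1.16 ± 0.23 with cisplatin (adjusted p = 0.00358).

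**Figure D4:**
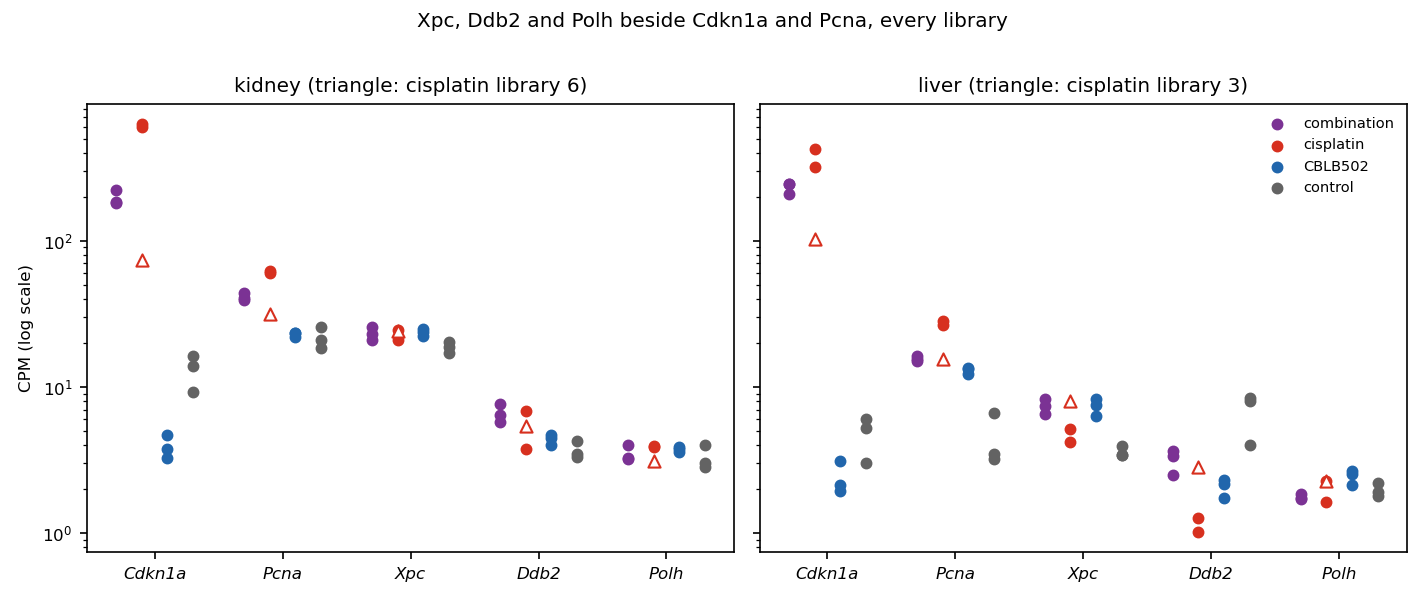
CPM on a log axis of Cdkn1a, Pcna, Xpc, Ddb2 and Polh in every kidney and liver library, in the combination, cisplatin, CBLB502 and control arms from left to right; open triangles are cisplatin libraries 6 and 3. Cdkn1a of the combination and cisplatin arms lies far above CBLB502 and control, while Xpc, Ddb2 and Polh of the dosed arms spread over a far smaller range.

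Fancl, the ubiquitin ligase subunit of the Fanconi core, was at 1.19 ± 0.21 CPM per kb in combination kidney, 1.22 ± 0.24 with cisplatin, 1.22 ± 0.26 with CBLB502 and 1.15 ± 0.12 in control. Fancb was at most 0.95 CPM in dosed kidney and 0.47 CPM in dosed liver, and Fancb, Fancf, Fancl and Fancm were called in no comparison of either tissue with all libraries in. Fanci and Fancd2, the pair that the core marks with ubiquitin, were near the limit of detection. Fancd2 was at 0.073, 0 and 0 CPM in combination kidney and 0, 0.034 and 0 CPM with cisplatin, against 0.4, 0.32 and 0.18 CPM with CBLB502, with 7, 3 and 87 counts in the 3 groups, and no count in control. The CBLB502 libraries were the highest, and cisplatin against CBLB502 had an adjusted p of 0.0819. In liver Fancd2 was at 0.059, 0 and 0.036 CPM in the combination, 0, 0 and 0.035 CPM after cisplatin, against 0, 0.11 and 0.17 CPM with CBLB502 and no count in control. Fanci had no count in control liver, and dosed livers held 0.45, 0.28 and 0.12 CPM in the combination, 0.1, 0.12 and 0.17 CPM after cisplatin and 0.29, 0.19 and 0.14 CPM with CBLB502. Against 3 counts over the control group, this was at least 3.13-fold higher in the combination, 1.44-fold with cisplatin and 2.24-fold with CBLB502.

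Against control, the arms were compared with libraries of far fewer counts outside mitochondrial sequence. In liver, cisplatin called 7 repair genes higher (Ddb1, Rpa1, Rpa2, Fancc, Fanci, Brca1 and Polk) and 7 lower (Ercc2, Ercc4, Ercc6, Ddb2, Fanca, Fancg and Slx4), a share of 43.8% beside a background of 43.1% (25.6% higher and 17.5% lower). The combination called 8 higher (Xpc, Ddb1, Rpa1, Rpa2, Fanci, Brca1, Rev1 and Polk) and 2 lower (Ercc2 and Slx4), with a background of 40.2% (23.8% higher and 16.4% lower). CBLB502 called 5 higher (Xpc, Ddb1, Rpa1, Rpa2 and Fanci) and 6 lower (Ercc2, Ercc5, Xpa, Ddb2, Fanca and Slx4), with a background of 27.8% (18.3% higher and 9.48% lower). The 3 arms share the control libraries. Several of these changes stood in the arm without cisplatin too. Rpa2 in control liver was at 0, 1.01 and 0 CPM, and the fitted log2 changes against it were 2.84 ± 0.93 in the combination (adjusted p = 0.03), 4.28 ± 0.95 with cisplatin (adjusted p = 0.00367) and 3.37 ± 0.93 with CBLB502 (adjusted p = 0.0192). The size of these values rests on control library 2: without it control holds no count, and the fit gave 10.87, 12.31 and 11.4, which are no measure of size. Fanca, a core subunit, was at 1.08, 1.47 and 1.27 CPM in combination liver, 0.54, 0.39 and 0.17 CPM with cisplatin and 0.4, 0.35 and 0.46 CPM with CBLB502, against 0.81, 2.32 and 8.05 CPM in control, where the libraries differed among themselves by more than some of the arms. Its log2 changes were -3.34 ± 0.76 with cisplatin (adjusted p = 0.00411) and -3.21 ± 0.75 with CBLB502 (adjusted p = 0.00822). Fanca overlaps Zfp276 on the other strand, and reads of this pair cannot be told apart. Zfp276 averaged 31.9 ± 2.87 CPM in combination liver, 9.58 ± 5.87 with cisplatin and 14.7 ± 2.06 with CBLB502 (SD, n = 3). In control livers 1, 2 and 3 it was at 17, 31.6 and 36.7 CPM. Fancg, another core subunit, was at 1.29, 1.14 and 0.55 CPM in combination liver and 0.84, 0.59 and 0.77 CPM with cisplatin, against 2.42, 1.86 and 1.61 CPM in control, with -1.42 ± 0.44 for cisplatin (adjusted p = 0.0231, and up to 0.0866 without cisplatin library 2 or control library 1).

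Of the 14 calls for cisplatin against control in liver, those of Ercc2, Ercc4, Ercc6, Ddb1, Ddb2, Rpa2, Fanca, Fancc and Brca1 held without any 1 library of the pair. Those of Rpa1, Slx4, Polk, Fanci and Fancg did not, with adjusted p up to 0.0866, 0.12, 0.093, 0.0657 and 0.0866. The call of Rpa1 was lost without cisplatin library 2 or 3 or control library 2 or 3, and so was that of Slx4, that of Polk without cisplatin library 1 or 2 or control library 1 or 3, and that of Fanci without any library of the pair except cisplatin library 1. Slx4, the scaffold of crosslink-cutting nucleases, was lower in 5 of the 6 comparisons of a dosed arm with control over both tissues, and was at 2.32, 3.25 and 2.18 CPM in combination liver, 4.51, 4.43 and 1.69 CPM with cisplatin and 3.15, 3.43 and 2.64 CPM with CBLB502, against 4.85, 8.75 and 8.86 CPM in control. Without cisplatin library 3, cisplatin against control called 5 higher and 6 lower, with a background of 46.8%, and Rpa1, Fanci and Slx4 were no longer called. The TFIIH helicase gene Ercc2 was lower in all 3 dosed livers, at -0.89 ± 0.26 in the combination, -1.03 ± 0.26 with cisplatin and -0.75 ± 0.26 with CBLB502 on the log2 scale. The Ercc2 call for CBLB502 was lost, with an adjusted p up to 0.25, without any 1 library of the pair except control library 1, and so was that of Slx4, with an adjusted p up to 0.116. With CBLB502, the Fanci call was lost without CBLB502 library 1 or 2 or control library 2 (adjusted p up to 0.0662). The Ddb2 call with CBLB502 was lost without CBLB502 library 1 (adjusted p = 0.0591). For the combination, the Ercc2 call was lost without combination library 1 or 3 or control library 2 (adjusted p up to 0.0961). That of Rev1 was lost without combination library 1 or 3 or control library 1 (adjusted p up to 0.065). That of Rpa2 was lost without any 1 library except control library 2 (adjusted p up to 0.0726), the only control liver library with an Rpa2 count.

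In kidney, cisplatin against control called 5 higher (Ercc1, Ddb1, Rpa2, Fance and Rev3l) and 2 lower (Fanca and Slx4), with a background of 39.3% (24.1% higher and 15.2% lower). The combination called 5 higher (Ddb1, Ddb2, Rpa1, Fance and Polk) and 1 lower (Slx4), with a background of 36.5% (21.5% higher and 15% lower), and CBLB502 3 higher (Ercc6, Ddb1 and Rev1), with a background of 19.2% (11.4% higher and 7.77% lower). Ddb1 was called in all of them: 1.82 ± 0.2 in the combination, 1.9 ± 0.2 with cisplatin and 1 ± 0.2 with CBLB502. Slx4 was at 16.2, 16.2 and 17.2 CPM in combination kidney and 15.6, 11.4 and 19.2 CPM with cisplatin, against 20.6, 29.9 and 27.3 CPM in control, with -0.75 ± 0.2 for cisplatin (adjusted p = 0.0109). Fanca in kidney was at 2.24, 2.57 and 4.13 CPM with cisplatin, against 6.6, 5.82 and 4.47 CPM in control. Zfp276, which overlaps it, averaged 15.3 ± 1.46 CPM in cisplatin kidney and 24.6 ± 8.14 in control (SD, n = 3). The calls of Ercc1 and Fanca for cisplatin were lost, with adjusted p up to 0.105 and 0.112, without cisplatin library 4 or 5, without control library 2 and, for Ercc1, control library 3 or, for Fanca, control library 1. The calls of Ddb1, Rpa2, Fance, Slx4 and Rev3l for cisplatin held without any 1 library. Without cisplatin library 6 all 7 held, and Ercc8 (1.19 ± 0.24, higher) and Mus81 (-0.68 ± 0.24, lower) were called as well, with a background of 51.7%. Of the calls for the combination, that of Ddb1 held, while those of Ddb2, Rpa1, Fance, Slx4 and Polk were lost without any of 4 or 5 of the 6 libraries, combination library 6 and control library 3 among them for each, with adjusted p up to 0.0951, 0.0906, 0.127, 0.0938 and 0.163. For CBLB502 the call of Rev1 was lost without any 1 of the 6 libraries, with an adjusted p up to 0.143.

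**Figure D5:**
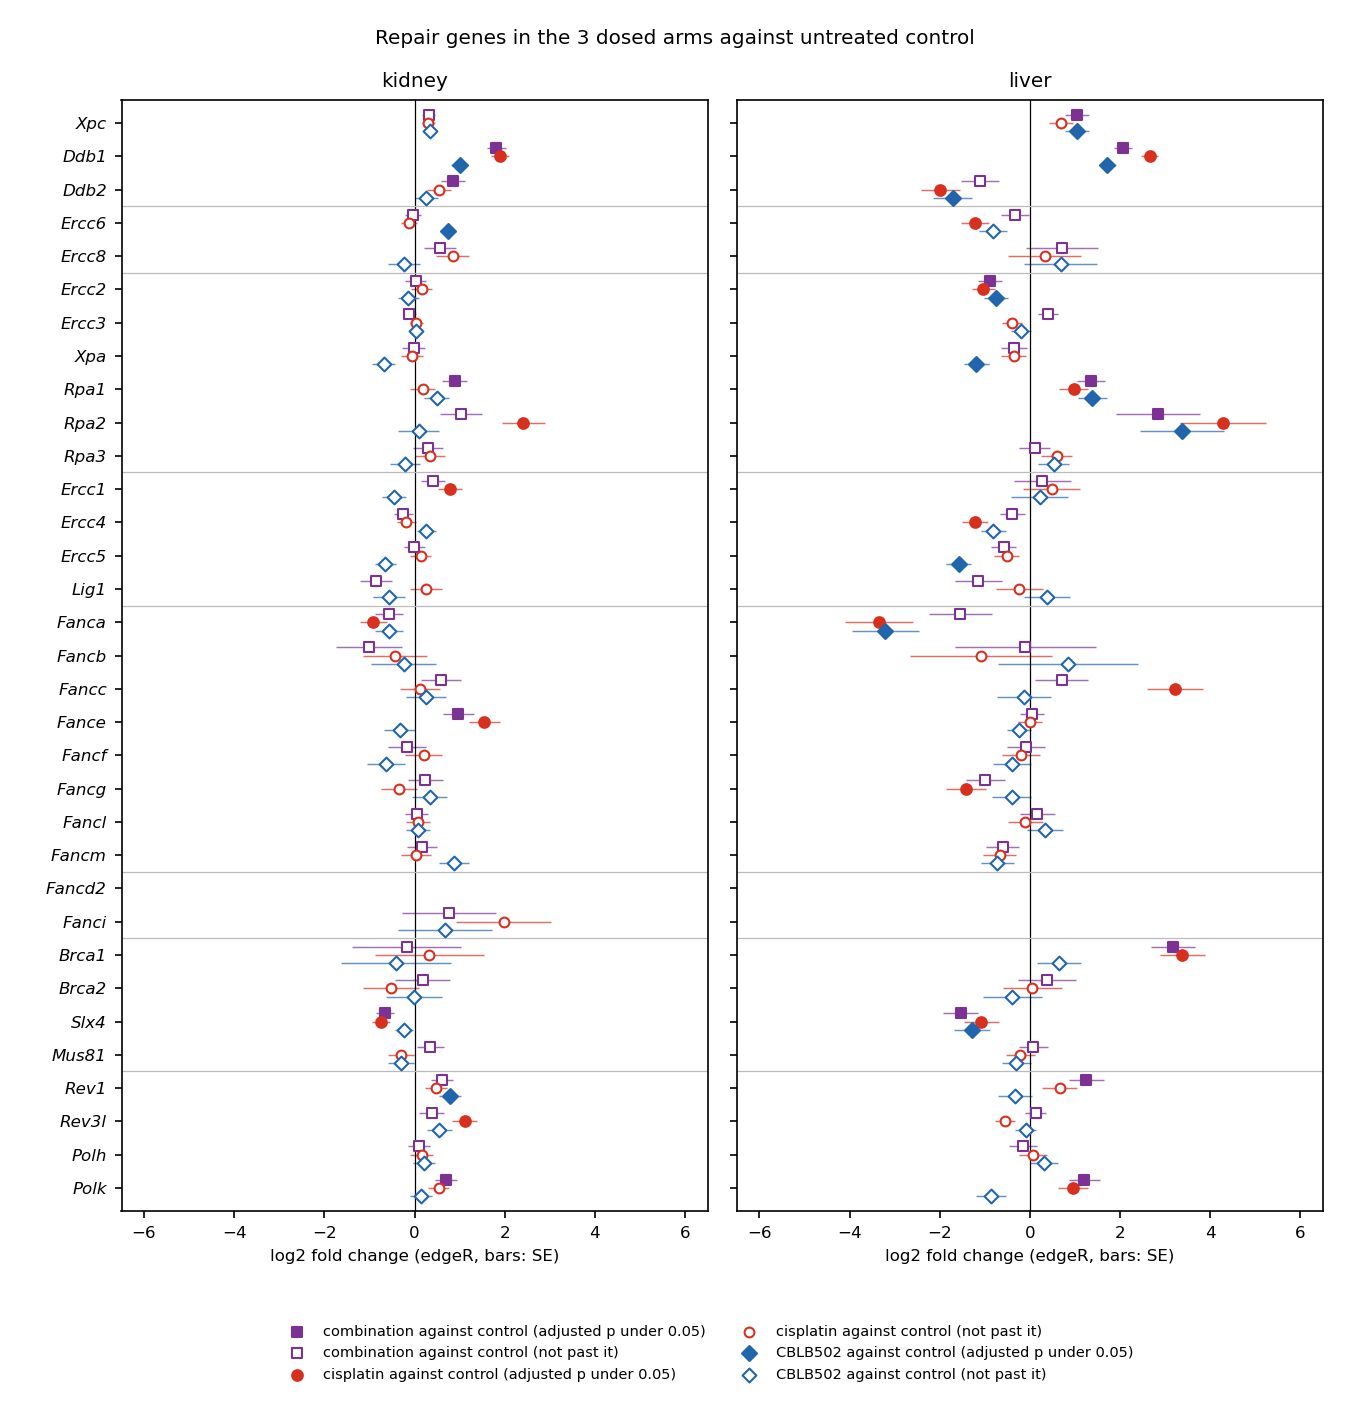
Log2 fold changes of the repair genes against untreated control for the combination (squares), cisplatin (circles) and CBLB502 (diamonds), in kidney and liver, with bars of 1 SE from the edgeR fit; filled symbols have an adjusted p under 0.05. Ddb1 is filled for all 3 arms in both tissues, and in liver Rpa1, Rpa2, Ercc2 and Slx4 are filled for all 3 as well; Fanci in liver and Fancd2 in kidney are left out because control held no count, and Fancd2 was not tested in liver.

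The response to the same doses was compared between the organs in a fit of all 24 libraries. For cisplatin against control, kidney minus liver called 7 repair genes higher (Ddb2, Fanca, Rev3l, Fance, Ercc2, Ercc6 and Ercc4) and 1 lower (Fancc), with a background of 14.2% (7.75% higher and 6.44% lower). Fance and Rev3l were called higher in kidney alone, while Ercc2, Ercc4, Ercc6 and Ddb2 were called lower in liver alone. For the combination against CBLB502, kidney minus liver called none higher and 3 lower (Rev1, Polk and Ercc6), with a background of 6.96% (4.08% higher and 2.87% lower). For cisplatin against CBLB502 it called Fancc and no other, with a background of 2.08% (1.25% higher and 0.834% lower). For the combination against cisplatin it called none of the 33 by edgeR, with 5 at an unadjusted p under 0.05 and 3 called by DESeq2, and a background of 0.964% (0.668% higher and 0.297% lower).

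Whether CBLB502 altered the change due to cisplatin was asked with the interaction, the combination minus CBLB502, minus cisplatin plus control. In liver it called 7 repair genes higher (Ercc3, Ercc4, Ercc5, Ercc6, Xpa, Ddb2 and Fanca) and 2 lower (Ddb1 and Rpa2), with a background of 21.7% (7.14% higher and 14.5% lower). The median was 0.56 for the repair genes and -0.23 for all genes. In kidney it called Ddb1 lower and no other, with a background of 8.01% (2.6% higher and 5.41% lower). Since the control libraries enter the interaction through cisplatin minus control, the interaction calls of both tissues carry the low depth of control. Without cisplatin library 3 the liver interaction called 6 higher and 3 lower, with a background of 30.4%: Xpa was no longer called and Fancc (-2.89 ± 0.53) was. Without cisplatin library 6 the kidney interaction called 2 higher (Fanca, 1.22 ± 0.37, and Mus81, 1.33 ± 0.32) and 4 lower (Ddb1, Rpa2, Rev3l and Ercc6), with a background of 25.2%.

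The other genes of these pathways were counted from lists, with all libraries in. In kidney, of 23 other excision repair genes, 7 were higher and none lower in the combination against CBLB502, and 8 were higher and 2 lower with cisplatin. Of all genes 14.9% were higher and 8.98% lower in the combination, and 18.5% higher and 10.2% lower with cisplatin, which also stand behind the next lists in kidney. The 23 included the clamp loader genes Rfc4 (1.33 ± 0.25 in the combination, adjusted p = 0.00269), Rfc5 (1.25 ± 0.25, adjusted p = 0.00385) and Rfc3 (1.77 ± 0.29 with cisplatin, adjusted p = 0.00141), and, lower with cisplatin, the TFIIH subunit gene Gtf2h2 (-1.12 ± 0.32) and the ligase gene Lig3 (-1.11 ± 0.26). In liver 1 of the 23 was higher and 1 lower in the combination (Uvssa, 1.32 ± 0.26, and Pold1, -1.2 ± 0.3), and 1 was higher with cisplatin (Gtf2h5, 0.89 ± 0.17), where 2.88% of all genes were higher and 3.86% lower in the combination and 7.7% and 4.84% with cisplatin.

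Of 10 other translesion genes, 2 were higher in the combination, close to the share of all genes, and 5 with cisplatin in kidney, and none lower. Mad2l2, the partner subunit of Rev3l, averaged 26 ± 2.25 CPM in combination kidney and 51.9 ± 35.4 CPM with cisplatin, against 5.63 ± 0.41 CPM with CBLB502 (SD, n = 3), with log2 changes of 2.21 ± 0.51 (adjusted p = 0.00896) and 3.2 ± 0.53 (adjusted p = 0.00142). Rad18, the ubiquitin ligase that marks stalled Pcna, averaged 4.93 ± 3.97 CPM with cisplatin, against 0.57 ± 0.24 CPM with CBLB502, with 3.12 ± 0.82 (adjusted p = 0.0152), and in liver 3.33 ± 2.63 CPM against 0.47 ± 0.27 CPM, with 2.81 ± 0.84 (adjusted p = 0.0493). Its partner Ube2a rose by 1.02 ± 0.14 in combination kidney (adjusted p = 0.000573). In liver none of the 10 was called in the combination, and with cisplatin 3 were higher, among them Rad18 and Pold3 (0.76 ± 0.21), and Poli (-1.12 ± 0.29) was lower.

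Of 24 other Fanconi and recombination genes, 2 were higher and 1 lower in combination kidney and 2 higher and 2 lower with cisplatin, smaller shares than the 23.8% and 28.7% of all genes called. Cenpx, a partner of Fancm, averaged 103 ± 12 CPM in combination kidney and 81.9 ± 7.74 CPM with cisplatin, against 25.8 ± 6.18 CPM with CBLB502, with changes of 2 ± 0.18 (adjusted p = 0.000115) and 1.67 ± 0.18 (adjusted p = 0.000391). Faap20 rose by 0.69 ± 0.15 (adjusted p = 0.00654) and 0.7 ± 0.15 (adjusted p = 0.00561). The recombination gene Xrcc3 was lower, at -1.23 ± 0.33 in the combination and -1.56 ± 0.33 with cisplatin in kidney, and -1.53 ± 0.39 with cisplatin in liver. Palb2, the partner of Brca2, was lower with cisplatin in kidney, at -1.41 ± 0.47 (adjusted p = 0.0431). In liver Blm, a helicase of recombination, was higher in the combination, at 1.97 ± 0.39 (adjusted p = 0.0116). Of all genes in liver, 6.74% were called in the combination and 12.5% with cisplatin, each against CBLB502. How many of the 24 were called in liver is not given here, so the single liver calls show nothing particular to this list. Of 8 mismatch repair genes 1 was called lower in kidney in each comparison (Msh6, -0.63 ± 0.18 in the combination, and Msh3, -0.72 ± 0.23 with cisplatin), and of 7 tested in liver none.

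Of the 33 repair genes, 10 (Rpa3, Lig1, Fancb, Fancd2, Fancf, Fancl, Fancm, Brca2, Mus81 and Polh) were called in no comparison within a tissue with all libraries in. Single comparisons called up to 43.1% of all genes. The share of all genes called in none was not counted, so this count shows nothing particular to repair genes.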

How the data were processed

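RNA was measured in 24 libraries, 3 per tissue and arm, grouped by the submitters' labels. The deposited table holds raw counts per gene for each library and the authors' FPKM values. Per the submitters' processing notes, cutadapt 1.9 and FastQC were used. The aligner, the counter, its strand setting and the genome build are not given in the sources used here. Of the 33272 gene IDs, 99.65% were found in a GRCm38 annotation, and of these 99.7% shared a start or end with it, so GRCm38 is used for positions. The deposited FPKM values of 15 columns served only to derive gene lengths. Of the per-sample FPKM columns, 9 were not used, because they could not be tied to 1 sample each. The count columns of the same dosed kidney libraries are equally untied, and were used as replicates of their group.

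Counts were fitted per tissue with edgeR 4.0.16 (TMM scaling, filterByExpr, quasi-likelihood test, Benjamini-Hochberg adjustment over all genes tested, threshold 0.05) under R 4.3.3, with all 4 arms in 1 fit and no covariates. Kidney minus liver came from 1 fit of all 24 libraries. A standard error is the log2 fold change divided by the square root of F. CPM are counts per M of the TMM-scaled library. The code was tested on simulated data. Alternatives were DESeq2 1.42.0, other scaling, no filter, only the compared groups, a replicate block (for the dosed kidneys chosen after seeing the data), thinning to equal depth, removal of mitochondrial genes and leaving out each library. Values in every library are given, per tissue, for up to 6 members with the highest and 6 with the lowest fold change among those called between dosed arms, for up to 4 each way against control after cisplatin, and for Xpc, Ddb2, Polh, Ercc1, Ercc6, Fancd2 and Rev3l whatever their result. Of other lists, up to 2 called genes each way are named, and Cdkn1a, Mki67 and Pcna. Values of Rpa1, Mus81 and, in liver, Slx4 were added after they were seen. The members and lists were chosen with earlier results of these data known. Of the members, 20 overlap another gene. Intervals of depth cover counting error only.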

Additional observations from a re-analysis of the deposited data

Results flagged for a closer look

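Differences of effect that passed the test of the difference itself are given here as log2 values with their standard errors and edgeR adjusted p. Their cause was not tested. The genes Ddb1, Ddb2, Fanca, Fancc and Rev1 each overlap a gene on the other strand, named above. Xpa, Ercc2, Fance, Rev3l and Polk also overlap genes on the other strand. For Xpa this is Ncbp1, which averaged 13.3 ± 0.28 CPM in combination liver and 14.1 ± 1.74 with cisplatin (SD, n = 3). With CBLB502 Ncbp1 was at 12.7 ± 1.35 CPM and in control liver at 11.2 ± 3.68. Reads of all such pairs cannot be told apart.

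In liver, the interaction, the combination minus CBLB502 set against cisplatin minus control, was positive for the excision genes Ercc3 (1 ± 0.3, adjusted p = 0.0341), Ercc4 (1.64 ± 0.4, adjusted p = 0.013), Ercc5 (1.52 ± 0.39, adjusted p = 0.0164), Ercc6 (1.71 ± 0.43, adjusted p = 0.0154) and Xpa (1.19 ± 0.39, adjusted p = 0.0494). It was also positive for Ddb2 (2.6 ± 0.59, adjusted p = 0.00958) and Fanca (5.01 ± 1.0, adjusted p = 0.00563). It was negative for Ddb1 (-2.3 ± 0.26, adjusted p = 0.000304) and Rpa2 (-4.81 ± 1.2, adjusted p = 0.0149), whose control livers held 13 counts in all, every one in library 2, without which the fit gave -12.84, no measure of size. The calls of Ercc4, Ddb1, Ddb2, Rpa2 and Fanca held without any 1 of the 12 libraries. Those of Ercc5 and Ercc6 were lost without CBLB502 library 2, with adjusted p of 0.0549 and 0.0505. Those of Ercc3 and Xpa were lost under 10 and 11 of the 12, with adjusted p up to 0.103 and 0.129. In kidney the interaction was negative for Ddb1 (-1.08 ± 0.28, adjusted p = 0.0363), and this call was lost under 9 of 12, with an adjusted p up to 0.093.

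Between the organs, the change with cisplatin against control was higher in kidney than in liver for Ddb2 (2.58 ± 0.51, adjusted p = 0.00235), Fanca (2.5 ± 0.78, adjusted p = 0.0369), Rev3l (1.7 ± 0.37, adjusted p = 0.00464), Fance (1.59 ± 0.43, adjusted p = 0.0182), Ercc2 (1.24 ± 0.37, adjusted p = 0.0276), Ercc6 (1.15 ± 0.37, adjusted p = 0.0402) and Ercc4 (1.09 ± 0.35, adjusted p = 0.0449). It was lower for Fancc (-3.04 ± 0.79, adjusted p = 0.014). The calls of Ddb2 and Rev3l held without any 1 library. That of Fancc was lost without liver cisplatin library 1 (adjusted p = 0.0501), that of Fance without liver control library 3, kidney cisplatin library 5 or kidney control library 2 (up to 0.0648), and those of Ercc2, Ercc4, Ercc6 and Fanca under 5, 7, 8 and 7 of 12 (up to 0.0959, 0.119, 0.122 and 0.208).

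The change in the combination against CBLB502 was lower in kidney than in liver for Rev1 (-1.83 ± 0.47, adjusted p = 0.0234), Polk (-1.58 ± 0.41, adjusted p = 0.0248) and Ercc6 (-1.33 ± 0.36, adjusted p = 0.0299), and these were lost under 7, 8 and 10 of 12 libraries left out, with adjusted p up to 0.082, 0.0768 and 0.109. For cisplatin against CBLB502 it was lower for Fancc (-3.58 ± 0.76, adjusted p = 0.0196), lost under 7 of 12, with an adjusted p up to 0.0632.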

How the results depend on the processing

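Counts of repair genes called that moved by over 1.5 times were these, and the cause was not tested. The shares of all genes called under these settings are not given here, so the counts do not show a move particular to repair genes. With DESeq2, liver gave 18 for the combination against control (main 10), 5 against cisplatin (main 1) and 7 against CBLB502 (main 3); kidney gave 5 for CBLB502 against control (main 3), 1 for the combination against cisplatin (main 0) and 2 for the interaction (main 1); kidney minus liver gave 3 for the combination against cisplatin (main 0), 5 for the combination against CBLB502 (main 3) and 4 for cisplatin against CBLB502 (main 1). With only the compared groups in the fit, liver gave 9 for cisplatin against control (main 14), 0 for the combination against cisplatin (main 1) and 11 against CBLB502 (main 3); kidney gave 3 for cisplatin against control (main 7), 5 for CBLB502 against control (main 3) and 14 for the combination against CBLB502 (main 4); kidney minus liver gave 0 for cisplatin against control (main 8), 12 for the combination against CBLB502 (main 3) and 0 for cisplatin against CBLB502 (main 1). Thinned to equal depth, liver gave 6 for the combination against control (main 10), kidney 0 for the interaction (main 1), and kidney minus liver 5 for cisplatin against control (main 8) and 2 for cisplatin against CBLB502 (main 1). Median-of-ratios scaling gave 3 in kidney for the combination against control (main 6), and without mitochondrial genes kidney minus liver gave 2 for cisplatin against CBLB502 (main 1).

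Leaving out each library gave, in liver, 9 to 14 for cisplatin against control, 7 to 14 for CBLB502 against control, 7 to 11 for the combination against control, 0 to 7 against cisplatin, 2 to 3 against CBLB502, 3 to 7 for cisplatin against CBLB502 and 5 to 12 for the interaction. In kidney, in the same order, it gave 5 to 9, 1 to 2, 1 to 5, 0 to 6, 2 to 4, 5 to 14 and 0 to 6. Kidney minus liver gave 4 to 8 for cisplatin against control, 0 to 3 for the combination against cisplatin, 0 to 2 for the combination against CBLB502 and 0 to 4 for cisplatin against CBLB502. The share of all genes called moved as well. For the combination against cisplatin in liver it was 23.1% without cisplatin library 3 and 3.57% with it. For cisplatin against CBLB502 in kidney it was 46.9% without cisplatin library 6 and 28.7% with it. For most of these fits the share is not given here, so the counts do not show a move particular to repair genes.

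With a replicate block, which liver numbers allow, the combination against cisplatin in liver called 0 repair genes (main 1), and the other liver counts were 12, 10, 10, 3, 4 and 8 for cisplatin, CBLB502 and the combination against control, the combination and cisplatin against CBLB502 and the interaction. Same-numbered liver libraries did not deviate together, with correlations of -0.169 to 0.176, so the numbers were not taken as pairs. In kidney no paired analysis was possible for comparisons with control, because control and dosed libraries share no numbers. The dosed arms share the column numbers 4 to 6, with correlations of -0.133 to 0.07 between same-numbered libraries. A fit of those arms with these numbers as a replicate block, chosen after seeing the data, called 0, 4 and 5 repair genes for the combination against cisplatin, the combination against CBLB502 and cisplatin against CBLB502, and 0, 4 and 7 without the block. The calls of Ercc5 and Ercc8 were lost with it (adjusted p = 0.0586 and 0.107), and that of Ercc8 without the block too (0.0591). For the block fits of liver and kidney, the shares of all genes called are not given here. Their counts therefore do not show a move particular to repair genes. No called gene reversed its direction under these alternatives. Of the single-gene calls, 87 kept their side of the threshold and 6 did not with DESeq2, 83 and 10 with median-of-ratios scaling, 77 and 16 with no filter, 63 and 23 with thinning, 56 and 26 with only the compared groups in the fit, 46 and 7 with the liver replicate block, and 91 and 2 without mitochondrial genes. Median-of-ratios scaling moved the liver median of all genes against control to -0.16 from 0.14 in the combination, to -0.14 from 0.09 with cisplatin and to -0.1 from 0.14 with CBLB502, and the share of higher calls to 45.6%, 49.6% and 50.1%, from 59.2%, 59.4% and 65.9%. Depth limits Fancd2, Fanci, Fancb, Brca1 and, in control liver, Rpa2.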
